A study of Mus musculus with 8 samples.

Results

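The 6 genes described here encode accessory subunits of the sodium pump: the beta subunits Atp1b1, Atp1b2 and Atp1b3 and the FXYD subunits Fxyd1, Fxyd3 and Fxyd5. They were found by their Ensembl identifiers among the 54309 genes of the deposited count table, and all 6 were among the 15472 genes that passed the filter on low counts. The family was chosen by a measured value, the difference of Atp1b1 between the treatments, which had the smallest p of all genes lower in the antiCD47 livers and was followed in that order by Smoc2 and Mgp. That difference is therefore given as a description with no test, and the family was put together with the results of the other members known.

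The livers came from male C57BL/6 mice (C57BL/6J per the series design) on a fructose, palmitate and cholesterol diet for 16 weeks, which provokes steatohepatitis (NASH), a fatty liver with inflammation and scarring. In weeks 8 to 16 the antiCD47 group received intraperitoneal anti-CD47 at 200 µg per mouse, an antibody to a surface protein that restrains phagocytosis, and the IgG group received control IgG. All mice were on the diet, so no healthy liver is among the samples. Of the 7 to 8 mice that the design names for a treatment, 4 libraries are present for each, named antiCD47 1 to 4 and IgG 1 to 4. Whole liver was sequenced as polyadenylated RNA, and nothing in the labels ties a library to an animal, so p-values measure the spread between these libraries.

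The sodium pump exports sodium and imports potassium at the cost of ATP, and the gradient it keeps drives the uptake of bile salts, amino acids and other solutes into hepatocytes. A catalytic alpha subunit works only when it is paired with a glycosylated beta subunit, which carries it to the plasma membrane and, in epithelia, also takes part in cell adhesion. Small membrane proteins with an FXYD motif sit beside the pair and tune its affinity for ions.

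Library totals ran from 43691472 to 55477484 counts. Levels are given as CPM, the counts of a gene relative to the library size after TMM scaling, and differences as log2 fold changes of antiCD47 over IgG from edgeR's quasi-likelihood fit, with an adjusted p (Benjamini-Hochberg over all genes tested) of 0.05 as the threshold. Of all genes tested, 10.8% passed, 5.44% higher and 5.4% lower in antiCD47, and the libraries of the treatments did not overlap for 19.6%, 9.51% with antiCD47 higher and 10.1% with antiCD47 lower. With scaling by library totals alone, 428 genes were higher and 3153 lower, against 842 and 836 with TMM, and the median of all genes moved to -0.19 on the log2 scale. The hepatocyte markers fitted the label: 14 of a list of 15 were in the table, none was at 0, and Alb averaged 46600 CPM in antiCD47 and 42500 CPM in IgG. Of 13 mitochondrial mRNAs, 11 were higher in antiCD47 (6 with library totals or without IgG 1, 1 without IgG 3, 0 without IgG 4 or antiCD47 3), with a summed level of 74100 to 85800 CPM in antiCD47 and 55800 to 64600 CPM in IgG; the part of this difference in the results below was not tested.

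The main beta subunits lay in opposite directions. Atp1b1, the usual beta subunit of hepatocytes and many epithelia, was at 0.529 of its IgG level in antiCD47, Atp1b3, a widely expressed beta subunit also found on leukocytes, rose, and Atp1b2, known best from glia as an adhesion molecule, had few counts. Atp1b1 was at 41.5, 30.3, 31.2 and 34.8 CPM in antiCD47 1 to 4, against 68.6, 62.0, 61.2 and 68.7 CPM in IgG 1 to 4. Every antiCD47 library lay below every IgG library, with antiCD47 1 nearest to them. The log2 fold change was -0.92 ± 0.10 (SE), from means of 34.4 ± 5.06 CPM in antiCD47 and 65.1 ± 4.08 CPM in IgG (SD, n = 4 each). The gene overlaps Nme7 on the other strand in the reference annotation, and no source used here says whether reads were counted by strand. Nme7 was far lower, at 4.95 ± 0.673 CPM in antiCD47 and 5.71 ± 0.709 CPM in IgG, with a log2 fold change of -0.21 ± 0.13. In bulk liver, fewer cells that express a gene and less RNA per cell cannot be told apart.

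Atp1b3 was at 39.2, 60.2, 47.5 and 44.3 CPM in antiCD47 1 to 4, against 34.8, 32.5, 34.6 and 32.3 CPM in IgG 1 to 4. Here every antiCD47 library lay above every IgG library, antiCD47 2 highest, and the IgG libraries were close together. It rose by a log2 fold change of 0.51 ± 0.12 (edgeR adjusted p = 0.0304). Of the 5 members besides Atp1b1 it was the only gene past the threshold, where 10.8% of all genes passed. Likewise it was the only 1 of these 5 without overlap, where 19.6% of all genes had none. The call was lost with scaling by library totals (0.32; adjusted p = 0.0517) and without IgG 1 (adjusted p = 0.0764), IgG 2 (0.053), IgG 3 (0.0796), IgG 4 (0.0916) or antiCD47 3 (0.0856), while the log2 fold change without a library stayed at 0.38 to 0.60. In the authors' deposited table, whose direction of comparison is not stated, Atp1b3 had an adjusted p of 0.0023.

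Atp1b2 was at 0.826, 0.705, 0.594 and 0.672 CPM in antiCD47 1 to 4, against 1.03, 0.782, 0.838 and 1.04 CPM in IgG 1 to 4. The groups overlapped through antiCD47 1 and IgG 2, and the log2 fold change of -0.40 ± 0.21 did not pass (edgeR adjusted p = 0.222). Only 135 counts over the antiCD47 libraries and 197 over the IgG libraries lie behind these values.

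**Figure D1:**
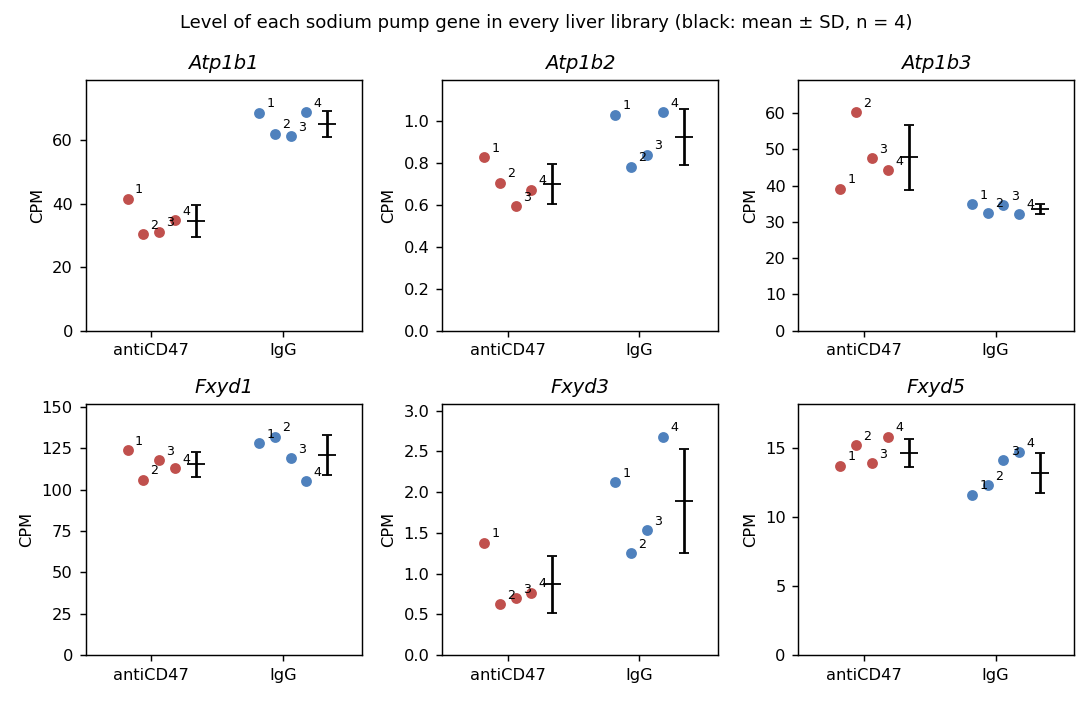
CPM (y axis, from 0) of each member in the 4 antiCD47 and the 4 IgG libraries, with the replicate number beside each point and the mean ± SD in black. Atp1b1 and Atp1b3 have no overlap between treatments and lie in opposite directions, while the groups overlap for the other 4 genes.

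The proportions of the beta subunits differed as well. Dividing counts by transcript length and taking shares within a library removes any dependence on library scaling. Atp1b1 made up 56.3%, 38.2%, 44.6% and 49.0% of beta subunit transcripts in antiCD47 1 to 4, against 70.4%, 69.8%, 68.2% and 71.9% in IgG 1 to 4. Its mean share was 47.0 ± 7.59% in antiCD47 and 70.1 ± 1.52% in IgG (SD, n = 4 each), while that of Atp1b3 was 52.2 ± 7.68% in antiCD47 and 29.1 ± 1.58% in IgG. Atp1b2 stayed below 1% in every library (0.711% to 0.938% over both treatments). Atp1b3 was the more abundant beta transcript per length in antiCD47 2, 3 and 4, and Atp1b1 in antiCD47 1 and in all IgG libraries. The ratio of Atp1b1 to Atp1b3 per length was 1.32, 0.626, 0.816 and 0.977 in antiCD47 1 to 4, against 2.45, 2.37, 2.20 and 2.64 in IgG 1 to 4. These shares contain the gene that picked the family, so they carry no test.

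**Figure D2:**
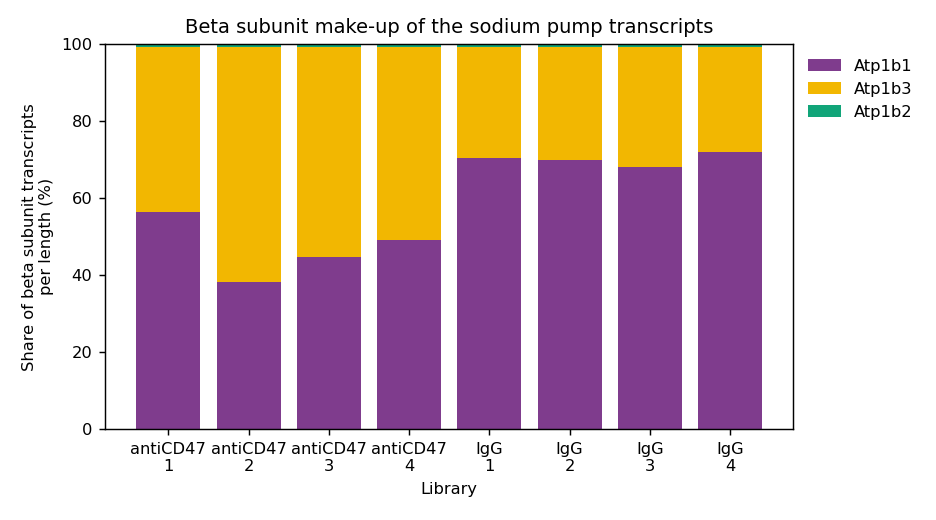
Share of each beta subunit (y axis, % of the 3 transcripts after division by length) in each library (x axis), with Atp1b1 at the bottom, Atp1b3 above it and Atp1b2 as the thin strip on top. The Atp1b1 part is 38.2% to 56.3% in antiCD47 libraries and 68.2% to 71.9% in IgG libraries.

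Summed over the 3 genes, the beta subunit level per length was 45.9, 49.4, 43.6 and 44.3 CPM per kb in antiCD47 1 to 4, against 60.7, 55.3, 55.9 and 59.6 CPM per kb in IgG 1 to 4. The mean sum was 45.8 ± 2.61 CPM per kb in antiCD47 and 57.9 ± 2.66 CPM per kb in IgG, with no overlap of the libraries. Of all genes tested, 19.6% had no overlap. The sum contains Atp1b1, the gene that picked the family, so it carries no test and is a description only.

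The sequences just upstream of the annotated starts are shown for the 2 beta subunits that lay in opposite directions and for Fxyd3, the member with the lowest fold. They are the 250 bases before the start from RefSeq (GRCm38.p6), 5′ to 3′ on the gene's strand, an older build than the GRCm39 named for the counts. For Atp1b3 the more upstream of 2 listed starts is given. Capitals mark any of 6 motifs on either strand: the GC box GGGCGG, the TATA box TATAAA, the run TATATA, the CCAAT box CCAAT, the steroid receptor motif AGAACA and the E-box CAGGTG.
Atp1b1 (chr1:164458356-164458605, minus strand): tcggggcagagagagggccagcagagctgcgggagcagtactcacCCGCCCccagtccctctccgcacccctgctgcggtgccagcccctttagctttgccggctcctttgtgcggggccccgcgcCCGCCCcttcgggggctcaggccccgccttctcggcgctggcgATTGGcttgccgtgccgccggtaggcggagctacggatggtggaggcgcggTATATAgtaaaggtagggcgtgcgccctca
Atp1b3 (chr9:96364432-96364681, minus strand): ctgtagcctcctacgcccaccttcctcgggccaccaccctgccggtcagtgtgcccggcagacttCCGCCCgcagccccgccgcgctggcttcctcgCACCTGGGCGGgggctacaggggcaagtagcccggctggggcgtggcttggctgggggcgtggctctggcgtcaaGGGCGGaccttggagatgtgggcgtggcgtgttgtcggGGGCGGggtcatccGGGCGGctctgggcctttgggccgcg
Fxyd3 (chr7:31076698-31076947, minus strand): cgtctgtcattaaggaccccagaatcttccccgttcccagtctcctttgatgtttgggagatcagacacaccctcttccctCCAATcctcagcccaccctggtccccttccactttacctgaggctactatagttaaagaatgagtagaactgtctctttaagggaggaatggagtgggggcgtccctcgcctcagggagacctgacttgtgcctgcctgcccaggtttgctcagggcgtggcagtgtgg
The Atp1b1 window holds 2 GC boxes, 1 CCAAT box and 1 TATATA run. The Atp1b3 window holds 5 GC boxes and 1 E-box, whose last base is also the first of a GC box, while the window of the other listed Atp1b3 start holds 0 of the 6 motifs. The Fxyd3 window holds 1 CCAAT box. Among all 32851 listed promoters, 32.7% held GGGCGG in the same window, 33.8% CCAAT, 17.2% CAGGTG and 5.25% TATATA. GC content was 70.4% for Atp1b1, 73.6% for Atp1b3 and 55.2% for Fxyd3. Promoters were listed for 5 of the 6 members, and these matches describe the letters only.

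The FXYD subunits showed no common direction. Fxyd1, or phospholemman, the FXYD subunit that hormones phosphorylate in heart and muscle, was at 124, 106, 118 and 113 CPM in antiCD47 1 to 4, against 128, 132, 119 and 105 CPM in IgG 1 to 4. The groups overlapped almost fully, with a log2 fold change of -0.07 ± 0.08 (edgeR adjusted p = 0.598). Fxyd5, also called dysadherin, which lowers adhesion between epithelial cells, was at 13.7, 15.2, 13.9 and 15.8 CPM in antiCD47 1 to 4, against 11.6, 12.3, 14.1 and 14.7 CPM in IgG 1 to 4. Its log2 fold change of 0.15 ± 0.10 did not pass (edgeR adjusted p = 0.306) and was -0.04 with scaling by library totals.

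Fxyd3, an FXYD subunit of epithelia first described in mammary tumours, was at 1.38, 0.624, 0.696 and 0.764 CPM in antiCD47 1 to 4, against 2.12, 1.25, 1.53 and 2.68 CPM in IgG 1 to 4. The groups overlapped only through antiCD47 1, which exceeded IgG 2, and the other antiCD47 libraries lay below every IgG library. The log2 fold change was -1.13 ± 0.32, just outside the threshold (edgeR adjusted p = 0.0519), from 168 counts over the antiCD47 libraries and 407 over the IgG libraries. It passed in 8 of 17 alternatives, among them those without antiCD47 1 (-1.45; adjusted p = 0.0131), without IgG 2 (-1.28; 0.0426), with DESeq2 (0.00832) and with the replicate number as a block (0.0282), and over all alternatives the adjusted p ran from 0.00832 to 0.134. The authors' deposited table gives it an adjusted p of 0.0199. Fxyd3 overlaps Lgi4 on the other strand, which had 31 counts over the antiCD47 libraries and 47 over the IgG libraries.

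Per length, Fxyd1 was by far the most abundant FXYD transcript, with 91.4 ± 0.752% of the 3 in antiCD47 and 91.4 ± 1.85% in IgG. Fxyd5 held 7.81 ± 0.922% in antiCD47 and 6.76 ± 1.27% in IgG (SD, n = 4 each). Fxyd3 held 1.25%, 0.655%, 0.664% and 0.748% in antiCD47 1 to 4, against 1.88%, 1.09%, 1.43% and 2.77% in IgG 1 to 4. An exact permutation test over libraries, two-sided, gave p = 1, 0.0571 and 0.229 for Fxyd1, Fxyd3 and Fxyd5, and 1, 0.171 and 0.343 adjusted over the 3. The smallest exact p this design allows is 0.0286 before adjustment, so a single share could not pass after adjustment over 3, and nothing is read from these p-values. Ordered by level per length, the members ran in antiCD47 from Fxyd1 (197 to 231 CPM per kb over the libraries) to Atp1b3 (19.6 to 30.2), Atp1b1 (18.9 to 25.8), Fxyd5 (17.1 to 19.7), Fxyd3 (1.42 to 3.14) and Atp1b2 (0.310 to 0.431). In that order Atp1b3, Atp1b1 and Fxyd5 overlapped their neighbours. In IgG the order was Fxyd1 (196 to 245 CPM per kb), Atp1b1 (38.2 to 42.8), Atp1b3 (16.2 to 17.5), Fxyd5 (14.5 to 18.4), Fxyd3 (2.86 to 6.10) and Atp1b2 (0.408 to 0.541), and only Atp1b3 and Fxyd5 overlapped.

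Across a list of 22 genes of the pump and its relatives, among them the other FXYD genes and the NKAIN proteins that bind beta subunits, 13 genes were tested. Of these 1 passed higher (Atp1b3) and 2 lower, including Atp1b1, which was chosen for it, where 10.8% of all genes passed (5.44% higher, 5.4% lower), with a median log2 fold change of -0.12, against -0.01 over all genes. With scaling by library totals 0 were higher and 4 lower. Both calls besides Atp1b1 were lost when IgG 1, IgG 3, IgG 4 or antiCD47 3 was left out, and 1 of them without each of IgG 2 and antiCD47 2. Fxyd6, at 0.902 ± 0.395 CPM in antiCD47 and 1.69 ± 0.219 CPM in IgG, had a log2 fold change of -0.91 ± 0.30 and did not pass (edgeR adjusted p = 0.0756), although its libraries did not overlap. It passed in 4 of 17 alternatives, over which the adjusted p ran from 0.0116 to 0.179, and has an adjusted p of 0.0308 in the authors' deposited table. Nkain1 was at -0.23, Nkain2 at 0.00 and Nkain4 at 0.23. Atp1b4, Atp4b and Atp12a had no count in any library.

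**Figure D3:**
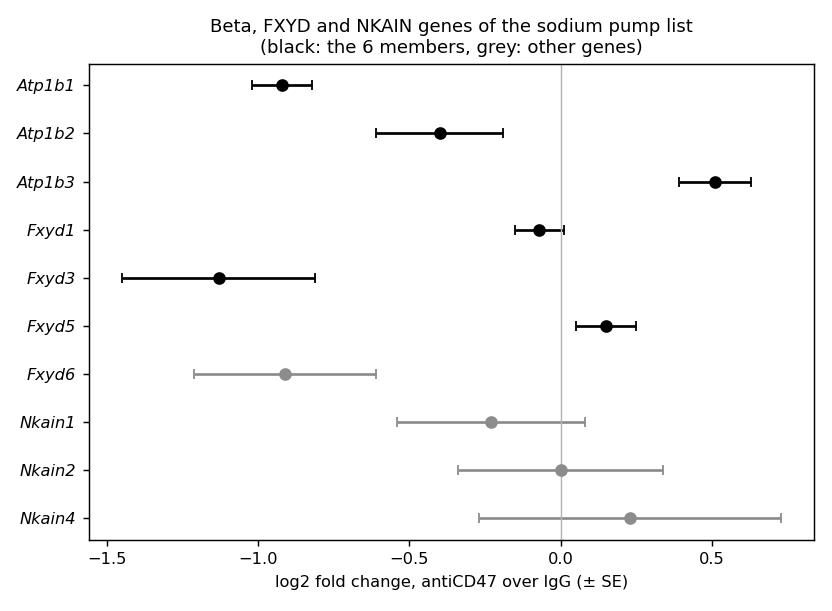
Log2 fold change of antiCD47 over IgG with its SE (x axis) for 10 tested beta subunit, FXYD and NKAIN genes of the pump list (y axis), with the 6 members in black. Atp1b1 lies at -0.92, Atp1b3 at 0.51 and Fxyd1 at -0.07.

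Of 19 tested genes for proteins that anchor or regulate the pump, 4 were lower and 0 higher, where 5.4% of all genes were lower and 5.44% higher, with a list median of -0.11. Other settings also gave higher calls, with 1 higher and 7 lower by DESeq2, 2 higher and 7 lower with voom and quality weights, 2 higher and 6 lower with the replicate block, 2 higher and 3 lower without IgG 2, and 1 higher and 3 lower without antiCD47 4. Ank3, which encodes ankyrin-G, the adaptor that holds the pump at the lateral membrane of epithelial cells, fell (log2 fold change -1.06 ± 0.16; edgeR adjusted p = 0.016), with 10.3 ± 2.56 CPM in antiCD47 and 21.4 ± 1.96 CPM in IgG. The kinase gene Src (-0.73 ± 0.12; adjusted p = 0.016), Nr3c2, the mineralocorticoid receptor that raises pump expression in kidney (-0.68 ± 0.17; 0.0373), and Add1, adducin of the membrane skeleton (-0.48 ± 0.13; 0.0422), fell as well. The spectrin genes Sptan1 and Sptbn1 were both at 0.01, and the pump-regulating kinase gene Sgk1 was at -0.09 ± 0.11 (0.581). All 4 calls were lost when IgG 3, IgG 4 or antiCD47 3 was left out (adjusted p = 0.0508 to 0.114), 2 without each of IgG 1, IgG 2 and antiCD47 4, and that of Nr3c2 also without antiCD47 2 (0.0811).

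In a list of sodium-coupled transporters that also holds the scaffold gene Slc9a3r1, 5 of 27 tested genes were higher and 1 lower, where 5.44% of all genes were higher and 5.4% lower, with a median of 0.10. The split depended on the scaling and the tool, with 4 higher and 5 lower with library totals and 6 higher and 5 lower with voom and quality weights. Slc28a2, a nucleoside transporter (1.32 ± 0.32; edgeR adjusted p = 0.0336), Slc9a3r1, the scaffold NHERF1 of membrane transporters (0.81 ± 0.19; 0.0302), Slc22a5, the carnitine transporter (0.68 ± 0.17; 0.0353), Slc4a4, a sodium bicarbonate cotransporter (0.60 ± 0.14; 0.0338), and Slc17a1, a phosphate and urate transporter (0.59 ± 0.16; 0.0438), rose, the last not past the threshold with library totals (0.40; 0.0763). Slc5a6, which takes up biotin and pantothenate, fell (-0.62 ± 0.11; 0.0164). The bile salt transporter gene Slc10a1 was at 282 ± 30.8 CPM in antiCD47 and 283 ± 33.4 CPM in IgG, with a log2 fold change of -0.01 ± 0.11 (0.971). All 6 calls were lost when IgG 1, IgG 3, IgG 4 or antiCD47 3 was left out (adjusted p = 0.0542 to 0.116), 3 of them without antiCD47 2 and 1 without each of IgG 2 and antiCD47 4.

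Of 26 tested channel, exchanger and calcium pump genes, 5 were lower and 1 higher, where 5.4% of all genes were lower and 5.44% higher, with a median of -0.14. With scaling by library totals 10 were lower and 0 higher. Cftr, the chloride channel of bile duct cells and also a member of the biliary list (-1.35 ± 0.27; edgeR adjusted p = 0.0223), the potassium channel genes Kcnq1 (-1.30 ± 0.31; 0.0321), Kcnn4 (-1.03 ± 0.22; 0.028) and Kcnn2 (-0.41 ± 0.11; 0.0493), and Slc8b1, the sodium-calcium exchanger of mitochondria (-0.37 ± 0.10; 0.049), fell. Scnn1a, a subunit of the epithelial sodium channel, rose (0.41 ± 0.11; 0.044) and did not pass with scaling by library totals (0.22; 0.146), by upper quartiles (0.35; 0.0649), with no low count filter (0.0559) or with the replicate block (0.0597); Slc8b1 did not pass with the block either (-0.39; 0.0508). All 6 calls were lost when IgG 1, IgG 3, IgG 4 or antiCD47 3 was left out (adjusted p = 0.0549 to 0.132), 4 without antiCD47 2, 3 without IgG 2, 2 without antiCD47 4 and 1 without antiCD47 1.

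The genes whose profile was most like that of Atp1b1 were found by the root mean square difference of log2 CPM over the 8 libraries, each gene centred on its own mean. Pde4c, a cyclic AMP phosphodiesterase, came first, with a difference of 0.0975 on the log2 scale, followed by Plekha7, an adherens junction protein (0.0987), the Polycomb gene Cbx6 (0.103), Olfm3 (0.105), the matrix gene Fbln2 (0.113), the glycogen phosphorylase gene Pygb (0.114), Kdelr3, a receptor that retrieves proteins to the endoplasmic reticulum (0.115), Slc5a1, a sodium-coupled glucose transporter (0.116), Scarf2 (0.117) and Ptgfrn (0.12). Their log2 fold changes ran from -0.94 (Slc5a1) to -0.80 (Fbln2 and Scarf2). Cbx6, for example, was at 10.3 ± 1.68 CPM in antiCD47 and 18.1 ± 2.35 CPM in IgG. Since the profile is dominated by the difference that picked Atp1b1, the likeness is a description only.

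**Figure D4:**
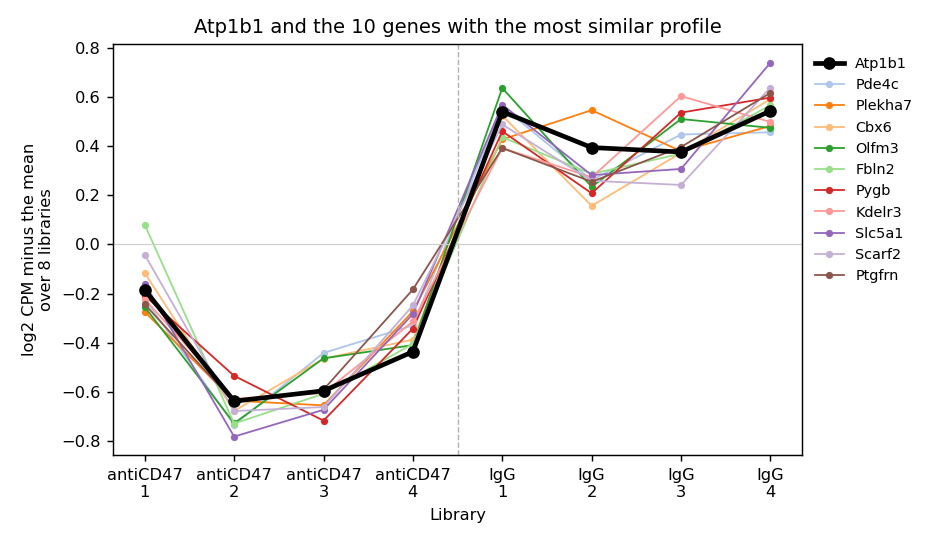
Log2 CPM minus the mean over the 8 libraries (y axis) of Atp1b1 in black and of the 10 genes most like it in colour, for each library (x axis); lines only join the points of a gene, and replicates have no order. Within antiCD47, library 1 is the highest for Atp1b1, and all 11 genes are lower in each antiCD47 library than in any IgG library.

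For Fxyd3 the nearest profiles were those of Evc, a ciliary hedgehog gene (0.131), Mansc1 (0.134) and Cldn7, a tight junction gene that is also in the biliary list (0.136). For Atp1b3 they were Nudcd1 (0.042), the membrane protease gene Adam9 (0.0488) and Gfra1, a GDNF receptor (0.0527). Atp1b2 was nearest to Vcpkmt (0.0565) and Carmil1 (0.0574), Fxyd1 to Ppp2r1b (0.0282), Cox6a1 (0.029) and Pdcl3 (0.0363), and Fxyd5 to Zfp729b (0.0499), Ndst2 (0.0524) and Ptbp3 (0.055).

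Markers of other cells differed between the same libraries. Of 15 biliary markers 12 were lower and 0 higher, where 5.4% of all genes were lower and 5.44% higher. The biliary count was 3 lower without IgG 1, 2 without IgG 3, 6 without antiCD47 2, and 0 without IgG 4 or antiCD47 3. The summed biliary level was 177 to 471 CPM in antiCD47 and 508 to 753 CPM in IgG, and none of these markers was at 0 in all libraries. The biliary score, the mean over markers of log2 CPM minus the IgG mean, was -0.51, -1.50, -1.28 and -1.16 in antiCD47 1 to 4, against 0.14, -0.27, -0.21 and 0.34 in IgG 1 to 4. Atp1b1, measured the same way, was at -0.65, -1.10, -1.06 and -0.90 in antiCD47 1 to 4, and Fxyd3 at -0.39, -1.49, -1.34 and -1.21, so that antiCD47 1 was highest and antiCD47 2 lowest in all 3. Stellate cell and fibroblast markers were lower in 7 of 15 (4 without IgG 3, 0 without IgG 4 or antiCD47 3), with a summed level of 533 to 747 CPM in antiCD47 and 869 to 1250 CPM in IgG. The stellate and fibroblast score was -0.61, -0.92, -0.90 and -0.46 in antiCD47 1 to 4, against -0.01, -0.19, -0.02 and 0.21 in IgG 1 to 4. Here antiCD47 2 was the lowest as well, so that place is not particular to the biliary markers, while antiCD47 4 was the highest. The place of antiCD47 1 nearest to the IgG libraries is not particular to the biliary markers either. Of the antiCD47 libraries it also had the lowest Kupffer cell score (1.07) and neutrophil score (1.23), while the erythroid score was lowest in antiCD47 3 (1.26). Among smooth muscle markers 1 of 7 tested was lower, and 0 without IgG 1, IgG 3, IgG 4 or antiCD47 3 (63.0 to 85.2 CPM in antiCD47, 88.3 to 108 CPM in IgG). Nothing is read from this single smooth muscle call. The part of these cells in the values of Atp1b1 and Fxyd3 was not tested.

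Beside the higher Atp1b3, Kupffer cell markers were higher in 7 of 10, where 5.44% of all genes were higher. The summed level of these markers was 601 to 840 CPM in antiCD47 and 321 to 497 CPM in IgG. Neutrophil markers were higher in 9 of 9 tested of a list of 10 (447 to 1290 CPM in antiCD47, 90.4 to 343 CPM in IgG), and erythroid markers in 7 of 7 tested of 10 (1230 to 2220 CPM in antiCD47, 445 to 680 CPM in IgG). The library with the most Atp1b3, antiCD47 2, also had the highest Kupffer score (1.89), neutrophil score (2.23) and hepatocyte score (0.15), while the erythroid score was highest in antiCD47 4 (2.04). In IgG 1 to 4 the Kupffer score was 0.21, -0.45, 0.75 and -0.51, and the neutrophil score -0.02, 0.31, -0.07 and -0.22. Atp1b3, measured the same way, was at 0.05, -0.04, 0.04 and -0.05 in IgG 1 to 4. Of 11 monocyte and lipid-associated macrophage markers 1 was higher (434 to 577 CPM in antiCD47, 303 to 521 CPM in IgG), and none of 11 lymphocyte, 10 endothelial or 5 mesothelial markers passed by edgeR, where 3, 2 and 0 had an unadjusted p under 0.05 and DESeq2 called 1, 1 and 0. Their summed levels were 37.7 to 79.3, 182 to 208 and 6.20 to 22.7 CPM in antiCD47, against 28.4 to 38.0, 158 to 226 and 7.09 to 10.6 CPM in IgG. Hepatocyte markers differed little, with 1 of 14 higher (Hnf4a) and a median log2 fold change of 0.06. The Kupffer count was 1 without IgG 1, 4 without IgG 2, 3 without antiCD47 2, and 0 without IgG 4 or antiCD47 3. The neutrophil count was 1 without IgG 1, 4 without antiCD47 2, and 0 without IgG 3, IgG 4 or antiCD47 3, and the erythroid count 5 to 7 without any 1 library other than IgG 4, where it was 0. The single monocyte and hepatocyte calls were lost without IgG 1, IgG 3, IgG 4, antiCD47 2 or antiCD47 3, and nothing is read from them. The part of leukocytes in the level of Atp1b3 was not tested.

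**Figure D5:**
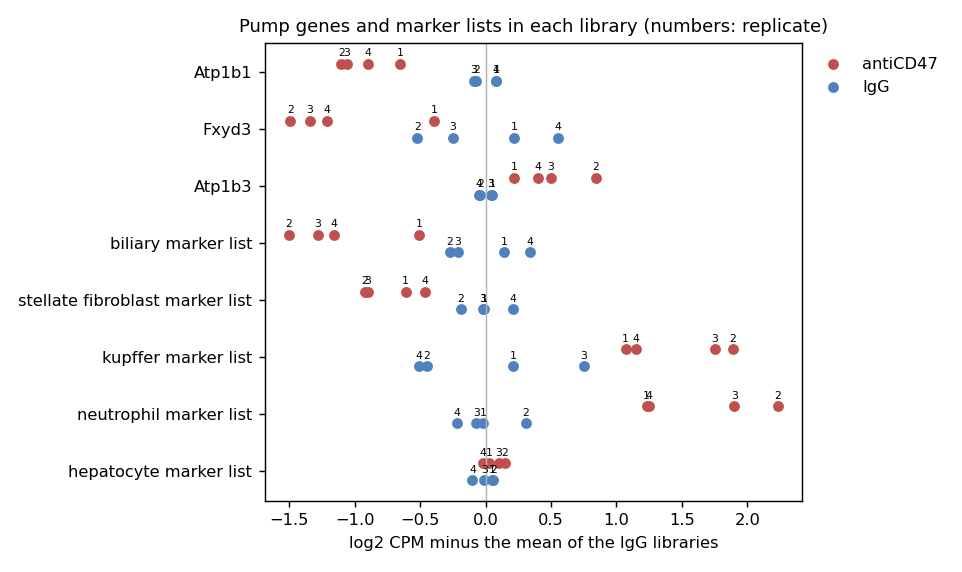
Log2 CPM minus the IgG mean (x axis) of Atp1b1, Fxyd3 and Atp1b3 and the mean of the same quantity over marker lists (y axis) in each library, antiCD47 above IgG in each row and numbered by replicate. Among antiCD47 libraries, library 1 is the highest and library 2 the lowest for Atp1b1, Fxyd3 and the biliary markers, and library 2 the highest for Atp1b3, Kupffer and neutrophil markers. For the stellate cell and fibroblast markers library 2 is the lowest as well, and library 4 the highest. Library 1 is also the lowest of the antiCD47 libraries for Kupffer and neutrophil markers.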

How the data were processed

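Whole-liver polyadenylated RNA was sequenced from 8 Illumina TruSeq libraries, 4 antiCD47 and 4 IgG, per the labels' protocols. The deposited count table gives, for each Ensembl gene, estimated counts as whole numbers without normalization; Salmon 1.3.0, DESeq2 1.32.0 and GRCm39 are named in the submitters' processing notes with no role stated, so rounding was not assumed beyond what the files show. The authors' deposited comparison table holds, per the file headers, a mean normalized count (a signal), a log2 fold change with SE, a p-value and an adjusted p-value, and a rank score; only its adjusted p-values were used.

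All 8 columns were matched by title. No pair of libraries of a group agreed within sampling noise (smallest chi-square per degree of freedom 24.2). The 54309 genes were filtered with filterByExpr, scaled by TMM and compared with glmQLFit and glmQLFTest in edgeR 4.0.16 (R 4.3.3), two-sided, adjusted over 15472 genes; the common dispersion gave a coefficient of variation of 16.7%. Per-length values use the median length of a gene's coding transcripts in an annotation of the older build GRCm38, from which symbols also came. Log2 CPM used a prior count of 2. Counts limit precision most for Atp1b2 and Fxyd3.

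The members, the gene lists and the tests were chosen with earlier results of these data known. Named genes are the 6 members, the 10 profiles nearest to Atp1b1 and the 3 nearest to each other member (predicted genes left out), and list members past the threshold or among the 4 smallest p; some further genes are named as context or as list members, which that rule does not cover. Some genes that the rule names are not reported here. Alternatives were other scalings, low count filters and tools (DESeq2 1.42.0, limma 3.58.1 voom with and without quality weights), the replicate number as a block, each library left out, and other lengths. The scripts were tested on simulated data. At the same threshold 20.7% of the DESeq2 calls there were false, against 2.4% with edgeR and 1.7% with voom. Of the simulated 1.5-fold changes edgeR recovered 38.8%, DESeq2 56.7% and voom 38.8%. Of the 2-fold changes they recovered 65.7%, 71.6% and 62.7%, so a gene that did not pass may still differ. The simulated counts were drawn with edgeR's dispersions, so these shares need not hold for the real counts. Figures were drawn with matplotlib 3.10.9.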

Additional observations from a re-analysis of the deposited data

Results flagged for a closer look

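Among 24 groups of 4 library values checked with Dixon's test at the 95% level, which chance passes in about 5% of groups, 1 stood out. The share of Fxyd3 among the FXYD transcripts was 1.25% in antiCD47 1 and 0.655% to 0.748% in antiCD47 2, 3 and 4, a gap of 0.842 of the group's range. AntiCD47 1 also had the highest Fxyd3 level of its group and the highest biliary marker score (-0.51). It had the lowest Kupffer (1.07) and neutrophil (1.23) scores of its group as well. The part of any of these cells in the value was not tested.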

How the results depend on the processing

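The log2 fold change of Atp1b1 stayed negative in all 17 alternatives, at -1.10 with scaling by library totals, where the median of all genes is -0.19, and at -1.02 to -0.86 with a library left out. Its share of beta subunit transcripts was lower in antiCD47 by a mean difference of -26.1 to -20.1 percentage points with a library left out and of -23.6 with no division by length and -23.7 with the longest transcript, a setting chosen after seeing the data. The number of genes past the threshold, 1678, was 3581 with library totals, 3179 with DESeq2, 4331 with voom and quality weights, and 2 to 3630 with a library left out (leaving out IgG 1 gave 174, IgG 3 gave 92, IgG 4 gave 2, antiCD47 1 gave 3630, antiCD47 2 gave 756 and antiCD47 3 gave 21). Of the 5 members besides Atp1b1, 2 passed in place of 1 (Atp1b3 and Fxyd3) with no low count filter, with at least 10 counts in every library of a treatment, with DESeq2, with quality weights and with the replicate block, and 0 to 2 with a library left out. The pump list had 5 calls in place of 3 with DESeq2 and with quality weights, and 0 to 4 with a library left out. The anchors and regulators had 8 in place of 4 with library totals, DESeq2 or the replicate block, 9 with quality weights, and 0 to 6 with a library left out. Sodium-coupled transporters had 11 in place of 6 with quality weights and 0 to 9 with a library left out, and channels and exchangers 10 with library totals, 11 with DESeq2, 12 with quality weights, and 0 to 10 with a library left out. The FXYD shares, where a single share cannot pass, give no information on stability; the difference of Fxyd1 ran from -0.928 to 0.465 percentage points. Of 1847 single-gene values for 109 genes, 1584 kept their side of the threshold, 174 lost it and 89 gained it. The number counted as reversed was 0, but sign changes of genes short of the threshold were not counted there. Fxyd5, for example, was at -0.04 with library totals. The cause of these shifts was not tested. The replicate numbers do not pair the libraries by any label: deviations of same-numbered libraries correlated at 0.03, 0.16, -0.02 and 0.03, and antiCD47 3 correlated best with IgG 2. The replicate block gave 2 calls among the 5 members.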

Other observations

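The Fxyd genes of this family lie side by side on chromosome 7 in the order Fxyd5, Fxyd7, Fxyd1, Lgi4 and Fxyd3 (RefSeq, GRCm38.p6, protein-coding genes). The log2 fold changes were 0.15 ± 0.10 for Fxyd5, -0.07 ± 0.08 for Fxyd1, -0.46 ± 0.39 for Lgi4 and -1.13 ± 0.32 for Fxyd3. Fxyd7 was too low to test and none of the 4 was past the threshold. Lgi4 rests on 31 counts over the antiCD47 libraries and 47 over the IgG libraries, so no trend along the chromosome is read from these values. The next gene, the hepatocyte protease gene Hpn, was at 0.01 (edgeR adjusted p = 0.93). On the other side of Fxyd5, Fam187b (0.70 ± 0.19; 0.0457) and Lsr, the lipolysis-stimulated lipoprotein receptor of hepatocytes and of tricellular junctions (0.32 ± 0.08; 0.0313), were higher.

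The neighbours of Atp1b1 on chromosome 1 differed among themselves as well. Dpt, the matrix gene dermatopontin next to it, was lower (-1.46 ± 0.21; edgeR adjusted p = 0.0147), with 9.90 ± 2.67 CPM in antiCD47 and 27.2 ± 6.13 CPM in IgG. Dpt is also in the stellate cell and fibroblast marker list, which had 0 calls without IgG 4 or antiCD47 3, so its call was lost there. On the other side, Blzf1, a Golgi protein gene, was higher (0.39 ± 0.10; 0.038). These neighbours were chosen by position in an annotation of another build, after the values of the members were seen. Of all genes tested, 5.44% were higher and 5.4% lower. Calls of Fam187b, Lsr and Blzf1 with a library left out are not given, but only 2 genes in all passed without IgG 4 and 21 without antiCD47 3.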
